A study of Mus musculus with 6 samples.

Results

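The knockdown of Tet1 and Tet2 together in E14 mouse embryonic stem cells was compared with the control shRNA, by reduced representation bisulfite sequencing (RRBS). One line, E14, was used throughout, and each condition had 1 library: cells carrying shRNAs against Tet1 and Tet2 (shTet1_Tet2) and cells carrying a control shRNA (shControl). The cytosines compared were those on the 19 autosomes with a methylation level in both libraries, matched on chromosome, position and strand, which came to 503842 of the 733073 autosomal cytosines with a level in any of the 6 libraries of the series. The other 4 libraries came from knockdowns of Dnmt1, of Dnmt3a, of Dnmt3b and of Dnmt3a with Dnmt3b. They were used to group cytosines and to give levels side by side. Both libraries derive from cells under short hairpin RNA. The extent of Tet1 and Tet2 depletion was not measured in the files used here, and whether the shRNAs were carried by clones or pools of cells is not given in the sources used here.

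TET1 and TET2 are dioxygenases that oxidise 5-methylcytosine to 5-hydroxymethylcytosine and on to 5-formylcytosine and 5-carboxylcytosine. The last of these are removed by the glycosylase TDG and replaced by unmodified cytosine. Both enzymes are abundant in embryonic stem cells, where TET1 in particular binds CpG-rich promoters. Bisulfite sequencing reads 5-methylcytosine and 5-hydroxymethylcytosine alike as cytosine, while 5-formylcytosine and 5-carboxylcytosine are read as unmethylated. A level is therefore the share of methyl- and hydroxymethylcytosine together. RRBS starts from MspI cuts at CCGG and so samples CpG-rich sequence.

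Some of the promoters described below are shown, with the CpGs that had a level in both libraries in capitals. The choice did not follow size alone: Spag8 and Il11, with larger differences than Sprn, are not shown. The windows run from 250 bases before to 50 bases after a gene's start, 5′ to 3′ on the gene's strand, from RefSeq on GRCm38.p6. They were assigned to the files' positions, which are on mm9, by matching the sequence around each listed cytosine. The first 3 were higher in the Tet1 and Tet2 knockdown at each CpG read. Slc25a31 had the most cytosines among the germline genes listed and did not pass the call for promoters used below. Plagl1 was lower in the knockdown at each CpG read, and 1 of the 7 cytosines listed in its window carried a context that differs from this sequence.
Spag17, chr3:99885167-99885466, plus strand: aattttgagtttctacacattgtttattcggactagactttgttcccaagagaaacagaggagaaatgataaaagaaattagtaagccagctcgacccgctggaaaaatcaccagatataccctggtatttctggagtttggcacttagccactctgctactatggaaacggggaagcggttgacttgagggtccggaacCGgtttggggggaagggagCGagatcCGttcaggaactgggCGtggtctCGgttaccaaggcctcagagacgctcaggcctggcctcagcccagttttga
Zglp1, chr9:21067044-21067343, minus strand: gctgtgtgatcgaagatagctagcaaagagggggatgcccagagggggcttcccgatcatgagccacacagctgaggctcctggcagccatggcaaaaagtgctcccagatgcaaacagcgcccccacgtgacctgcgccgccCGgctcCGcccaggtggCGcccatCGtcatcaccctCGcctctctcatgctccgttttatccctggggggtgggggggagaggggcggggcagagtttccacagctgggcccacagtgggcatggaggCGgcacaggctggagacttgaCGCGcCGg
Sprn, chr7:140154610-140154909, minus strand: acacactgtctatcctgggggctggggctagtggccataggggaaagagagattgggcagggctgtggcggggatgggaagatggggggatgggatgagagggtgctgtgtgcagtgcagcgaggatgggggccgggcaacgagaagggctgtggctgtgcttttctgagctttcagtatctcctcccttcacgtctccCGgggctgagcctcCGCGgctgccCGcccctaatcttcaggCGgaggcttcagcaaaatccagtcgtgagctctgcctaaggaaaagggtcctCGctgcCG
Slc25a31, chr3:40708621-40708920, plus strand: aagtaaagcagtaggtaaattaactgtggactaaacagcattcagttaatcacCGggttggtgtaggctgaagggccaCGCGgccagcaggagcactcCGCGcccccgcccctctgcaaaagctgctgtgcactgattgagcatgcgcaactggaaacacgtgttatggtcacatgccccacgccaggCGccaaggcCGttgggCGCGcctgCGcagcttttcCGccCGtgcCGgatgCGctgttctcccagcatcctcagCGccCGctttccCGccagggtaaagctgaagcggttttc
Plagl1, chr10:13090582-13090881, plus strand: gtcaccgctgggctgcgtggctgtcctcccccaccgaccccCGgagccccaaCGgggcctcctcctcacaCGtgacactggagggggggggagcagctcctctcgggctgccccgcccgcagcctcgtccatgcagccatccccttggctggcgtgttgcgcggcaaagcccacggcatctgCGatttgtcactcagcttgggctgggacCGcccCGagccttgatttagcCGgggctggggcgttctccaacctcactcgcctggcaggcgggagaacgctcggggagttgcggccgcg

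Methylation was higher in the Tet1 and Tet2 knockdown library over the cytosines it shared with control. Over the 503842 shared cytosines the mean level was 33.0% ± 1.7 in the knockdown and 31.5% ± 1.7 in control (SD over the 19 autosomes). The difference was 1.52 ± 0.15 percentage points and was positive on all 19 autosomes. It ranged between 1.27 points on chromosome 14 and 1.74 points on chromosome 4. With 1 library a side there is no replicate error and no test. The SD over autosomes describes the spread along the genome of the same pair of libraries. Read depth per cytosine is unknown, because only methylation fractions were deposited.

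More cytosines were higher than lower in the knockdown, but the median difference was 0. Of the shared cytosines, 38.6% were higher in the knockdown, 22.5% were lower and 39.0% had the same level in both. Fewer cytosines read exactly 0 in the knockdown (41.6%) than in control (43.7%). More read exactly 100% in the knockdown (2.83%) than in control (1.94%). Partly methylated cytosines, between 20% and 80%, made up 15.3% of the knockdown's levels and 16.4% of the control's. Switches between the extremes were rare: 10 cytosines were above 80% in the knockdown and below 20% in control, and 15 were the other way round.

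To ask where the difference lay without grouping cytosines by either compared library, they were grouped by their level in the Dnmt3b knockdown library. That library is not part of the comparison, and had a level for 487186 of the shared cytosines. Intermediate cytosines (20% to 80%, n = 79166) stood at 62.0% ± 0.9 in the Tet1 and Tet2 knockdown and at 56.5% ± 0.9 in control, a difference of 5.43 ± 0.33 points. High cytosines (above 80%, n = 118249) stood at 89.8% ± 0.3 in the knockdown and at 88.4% ± 0.4 in control, a difference of 1.44 ± 0.19 points. Low cytosines (below 20%, n = 289771) stood at 2.01% ± 0.22 in the knockdown and at 1.48% ± 0.17 in control. Their difference of 0.531 ± 0.076 points is small in absolute size, but the knockdown's level was 136% of the control's. In each class the difference was positive on all 19 autosomes. With classes set on control itself, the low class differed by 0.795 points, the intermediate class by 7.02 points and the high class by -0.43 points, while with classes set on the Tet1 and Tet2 library they differed by 0.216, 3.34 and 3.42 points. The size of each class difference, the sign at high cytosines and the order of the intermediate and high classes thus depend on which library sets the class. With classes on the Dnmt3b library the intermediate class was first in points, but relative to control it stood at 110%, under the low class. The intermediate class ranged between 4.70 points on chromosome 12 and 5.90 points on chromosome 4.

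**Figure D1:**
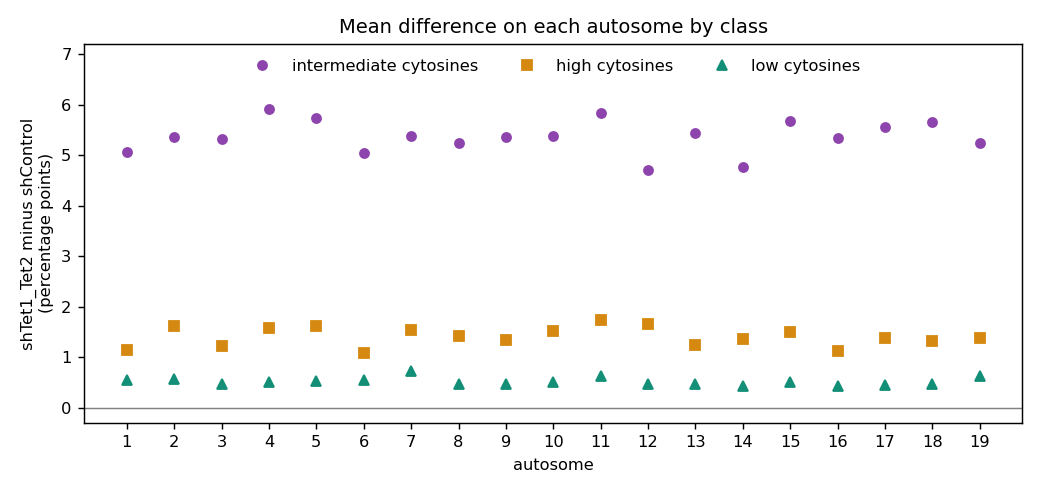
Mean difference in methylation level, shTet1_Tet2 minus shControl in percentage points, on each of the 19 autosomes. Circles are intermediate, squares high and triangles low cytosines, by their level in the Dnmt3b knockdown library; the intermediate class lies between 4.70 and 5.90 points on every autosome, above the other classes.

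In finer steps of the Dnmt3b library's level, the difference formed an arch. At cytosines that read 0 there, the Tet1 and Tet2 knockdown had 0.405% and control 0.288%, 0.117 ± 0.032 points apart. The difference was 2.33 ± 0.24 points in the step above 5% and up to 10%. It was 6.75 ± 0.80 points above 40% and up to 50%, where the knockdown read 51.1% and control 44.3%. It was also 6.75 ± 0.48 points in the next step up. Above 80% and up to 90% it was 2.00 ± 0.23 points, and above 90% it was 0.912 ± 0.185 points.

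**Figure D2:**
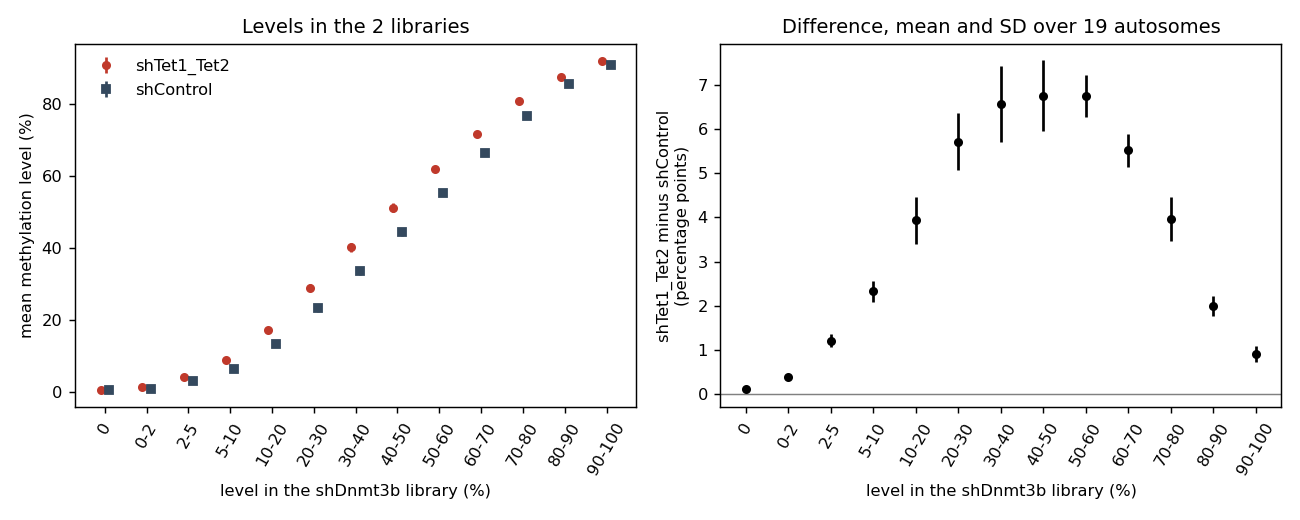
Left, mean methylation level in percent in shTet1_Tet2 (circles) and shControl (squares) against the cytosine's level in the Dnmt3b knockdown library in percent. Right, shTet1_Tet2 minus shControl in percentage points. Bars are the SD over 19 autosomes; the difference reaches 6.75 points between 40% and 60% and is under 1 point at 0 to 2% and above 90%.

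The Tet1 and Tet2 library also stood above the Dnmt3b library, a comparison that does not involve control. Over the 487186 cytosines the Tet1 and Tet2 knockdown averaged 33.1% and the Dnmt3b knockdown 31.99%, 1.07 ± 0.21 points apart and positive on all 19 autosomes. Control averaged 31.5% on the same cytosines. The class means against Dnmt3b itself are not read here, since that library set the classes. With classes set on the Dnmt3a library instead, intermediate cytosines (n = 99382) read 76.97% in the Tet1 and Tet2 knockdown, 73.9% in the Dnmt3b knockdown and 72.9% in control. High cytosines under that grouping read 91.4% in the Tet1 and Tet2 knockdown, 90.8% in the Dnmt3b knockdown and 90.8% in control.

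At single cytosines, gains outnumbered losses. A difference of at least 20 points was taken as a call. By it, 12957 cytosines (2.57%) were higher in the Tet1 and Tet2 knockdown and 4469 (0.887%) were lower. Of the intermediate cytosines 10.4% were higher and 2.44% lower, against 2.13% and 1.23% of the high ones and 0.399% and 0.117% of the low ones. Among the cytosines that also had a Dnmt3b level, the Tet1 and Tet2 knockdown had 3.21 gains for each loss against control and 2.23 against the Dnmt3b library. The Dnmt3b library had 1.52 gains for each loss against the same control, so the first and last of these ratios share the control library.

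It was then asked which of these 3 libraries stood apart from both others. The Tet1 and Tet2 library was at least 20 points above both others at 3719 cytosines and at least that far below both at 1359. Control was above both at 908 and below both at 3342. The Dnmt3b library was above both at 1326 and below both at 2141. The control library thus stood apart downward nearly as often as the Tet1 and Tet2 library stood apart upward. Part of the single-cytosine gains against control are cytosines where control alone was low.

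The spread between the strands of a CpG is large beside such calls. At 1553 intermediate CpGs with both strands read in both libraries, the SD of the plus-minus difference was 15.3 points in the Tet1 and Tet2 knockdown and 14.6 points in control. The strands are read from different molecules of the same library. Taken by their plus strand, 150 intermediate CpGs were at least 20 points higher in the knockdown. The minus strand was higher as well at 120 of these, and its mean difference over all 150 was 8.81 points. All intermediate CpGs of this kind were higher by a mean of 5.22 points over the 2 strands. A plus strand at least 20 points lower was found at 37, of which 17 had a lower minus strand, and the minus-strand mean over the 37 was 0.559 points.

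Neighbouring cytosines were joined into 29479 clusters of at least 5 cytosines at most 100 bp apart, with a median of 8 cytosines over 131 bp. A cluster was called when its mean differed by 20 points or more and 80% or more of its cytosines shared the sign. By this rule 102 clusters (0.346%) were higher in the Tet1 and Tet2 knockdown and 6 (0.0204%) were lower. Of the 102, 86 were intermediate, 7 high and 5 low by the Dnmt3b library, and 4 lacked enough Dnmt3b levels to be placed. Of all 29479 clusters, 4315 were intermediate, 5000 high and 19511 low. A cluster above 80% in control cannot rise by 20 points, so the rule itself limits which classes can be called. Intermediate clusters as a whole read 57.1% in the knockdown and 51.6% in control, a mean difference of 5.46 points with an SD of 6.69 over 4315 clusters. Of these, 81.2% were higher in the knockdown. At 5 points or more, 2236 intermediate clusters were higher and 226 lower.

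**Figure D3:**
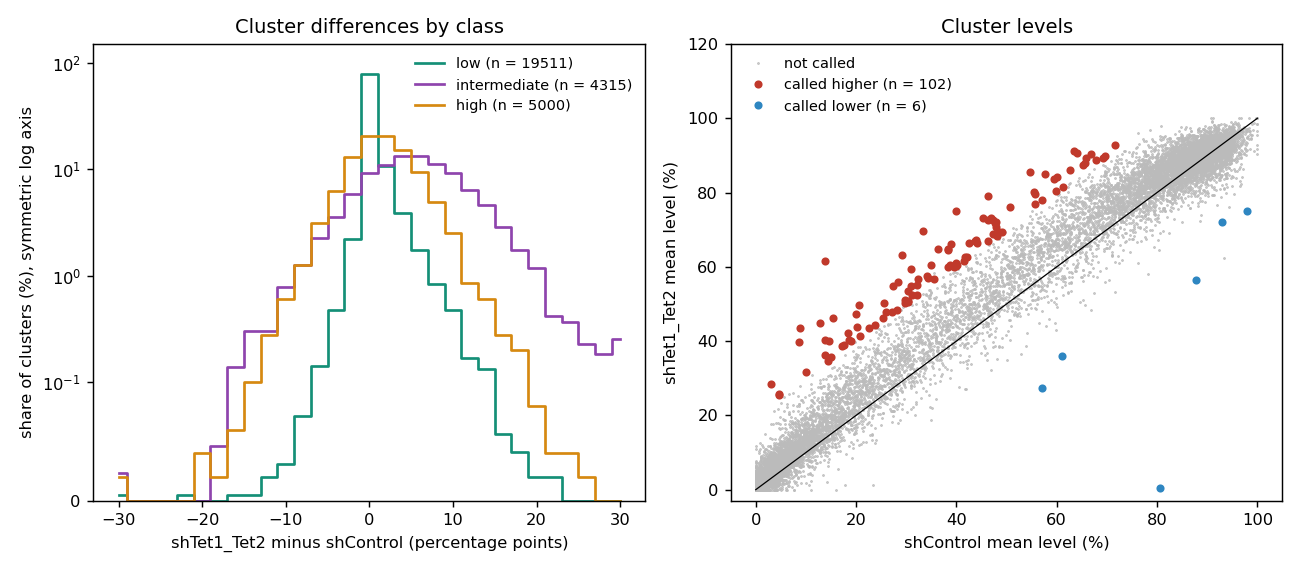
Left, share of clusters in percent on a symmetric log axis against shTet1_Tet2 minus shControl in percentage points, for 19511 low, 4315 intermediate and 5000 high clusters; values beyond 30 points are drawn at the ends. Right, each cluster's mean level in shTet1_Tet2 against shControl in percent, with the line of equal levels; the 102 clusters called higher and the 6 called lower are coloured.

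The called clusters had mid-range levels in the knockdown. The 102 higher ones read between 25.6% and 92.7% in the Tet1 and Tet2 knockdown, with a median of 60.9%. In control they read between 3% and 71.6%, with a median of 38.3%, and 20 of them were below 20%. The median difference from control was 22.8 points for the Tet1 and Tet2 library over the 102. It was 11.7 points for the Dnmt3b library over the 98 clusters where that library had levels, and both use the same control. These clusters were picked for a large difference between the Tet1 and Tet2 library and control, so a high reading of one and a low reading of the other are both part of the choice, and a level in between in another library is not independent of it. Over 28681 clusters with levels in all 3 libraries, the Tet1 and Tet2 library was at least 10 points above both others at 420 and below both at 32. Control was above both at 29 and below both at 344, and Dnmt3b was above both at 90 and below both at 140.

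The strands of a cluster gave a second reading. Intermediate clusters whose strands each held 3 or more cytosines numbered 1716, and 404 of these were at least 10 points higher in the Tet1 and Tet2 knockdown on the plus strand. Their median on the other strand was 7.23 points, 343 of them higher there, against a median of 4.92 points over all 1716. In the other direction, 50 were at least 10 points lower on the plus strand, and the other strand of these had a median of 3.63 points, on the higher side. At 20 points, 66 were higher on the plus strand with a minus-strand median of 8.61 points, and 4 of them passed 20 points there. Taking the minus strand first, 429 were at least 10 points higher, with a plus-strand median of 6.48 points against 5.13 points for the class. Gains past 10 points therefore kept part of their size on the other strand, a little above the class as a whole, while those past 10 points in the other direction were higher at the median on the other strand.

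Some of the clusters with the largest gains are shown as far as the files' 5-base contexts give their sequence, on the plus strand of mm9, with the CpGs read in capitals and unread bases as n. The first 3 were read on 1 strand and the last on both. Neighbouring cytosines on 1 strand can be read in the same fragments, so the cytosines of such a cluster are not separate readings. In the chromosome 4 cluster each control level was 6.2%, 12.5% or 31.2%, and the number of reads behind these levels is not known.
chr4:147455670-147455722: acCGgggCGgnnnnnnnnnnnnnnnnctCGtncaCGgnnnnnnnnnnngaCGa
chr15:101760302-101760354: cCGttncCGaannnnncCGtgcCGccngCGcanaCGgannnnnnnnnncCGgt
chr14:49271532-49271580: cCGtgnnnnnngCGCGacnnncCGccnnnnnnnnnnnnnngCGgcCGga
chr19:26822252-26822382: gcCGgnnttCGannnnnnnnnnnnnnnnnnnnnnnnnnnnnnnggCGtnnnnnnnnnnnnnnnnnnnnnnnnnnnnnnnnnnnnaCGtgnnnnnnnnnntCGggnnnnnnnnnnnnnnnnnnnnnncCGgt

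The chromosome 4 cluster (147455672 to 147455720, 5 cytosines) read 61.7% in the Tet1 and Tet2 knockdown and 13.7% in control. The Dnmt3b library read 37.3% there and the Dnmt3a library 13.4%. The nearest promoter matched by sequence, 6404 bp away, was that of Agtrap, which encodes a protein that binds the angiotensin II type 1 receptor. On chromosome 15 (101760304 to 101760352, 7 cytosines) the knockdown read 69.7% and control 33.3%, with 41.4% in Dnmt3b. On chromosome 14 (49271534 to 49271578, 6 cytosines) the knockdown read 44.9% and control 12.8%, with 29.0% in Dnmt3b. A cluster on chromosome 19 (7059932 to 7059967, 5 cytosines) lay 2125 bp from the Vegfb promoter, the start of a gene for a vascular endothelial growth factor. It read 39.7% in the knockdown and 8.54% in control, with 24.0% in Dnmt3b.

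The other largest gains lay on chromosome 2 (60555538 to 60555585, 75% in the Tet1 and Tet2 knockdown and 40% in control), chromosome 18 (25636890 to 25636995, 43.6% and 8.78%), chromosome 13 (6631171 to 6631268, 63.3% and 29.2%) and chromosome 11 (87797476 to 87797542, 79.2% and 46.2%). Where each strand held 3 or more cytosines, the largest called gain was the one shown on chromosome 19 (26822254 to 26822380). It read 46.3% in the knockdown and 15.4% in control, and was higher by 28.6 points on the plus and 33.3 points on the minus strand. On chromosome 11 (94987931 to 94988033, 7 cytosines) the knockdown read 28.6% and control 3%, by 20.8 points on the plus and 29.2 points on the minus strand. Others of this kind lay on chromosome 18 (34849947 to 34850072, 49.8% in the knockdown and 20.6% in control), chromosome 5 (112527748 to 112527916, 40.3% and 13.7%), chromosome 17 (34749180 to 34749282, 72.6% and 47.2%) and chromosome 12 (87859082 to 87859188, 56.7% and 32.4%). All 6 of these were higher at every cytosine.

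The 6 lower clusters were less alike. The largest difference by far was at chromosome 9 (3258831 to 3258883, 7 cytosines), where the Tet1 and Tet2 knockdown read 0.529% and control 80.7%. Its cytosines lay between 0 and 2.00% in the knockdown and between 74.3% and 86.1% in control. The Dnmt1 knockdown library read 84.0% there, while Dnmt3a, Dnmt3b and the double knockdown read 0.5%, 0 and 0.967%. These last 3 libraries had levels at 6, 5 and 3 of the 7 cytosines. Control and the Dnmt1 knockdown are thus the libraries that stand apart at this cluster. Over all shared cytosines, 10 were above 50% in both of those libraries and below 10% in the Tet1 and Tet2, Dnmt3b and Dnmt3a libraries, 7 on chromosome 9 and 3 on chromosome 17. Of the 102 higher clusters, 26 were read on 1 strand only. The other 5 lower clusters held plus-strand cytosines only. They lay on chromosome 5 (109983141 to 109983187, 56.3% in the knockdown and 87.8% in control; 4796734 to 4796783, 75.1% and 98.0%), chromosome 12 (100883432 to 100883477, 27.3% and 57.1%), chromosome 14 (68226437 to 68226474, 36.1% and 61.1%) and chromosome 8 (13795590 to 13795638, 72.0% and 92.9%).

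Promoters of 5298 genes could be read. These had at least 5 shared cytosines in a window whose sequence matched the listed contexts, and 5015 of them were low in the Dnmt3b library. The mean over genes was 2.18% in the Tet1 and Tet2 knockdown and 1.82% in control. Low promoters read 0.789% in the knockdown and 0.533% in control. The 98 intermediate promoters read 47.3% in the knockdown and 41.6% in control, a mean difference of 5.75 points with an SD of 6.14 over genes, and 85 of them were higher. The 31 high promoters read 88.4% in the knockdown and 86.3% in control. Promoters were called when the mean differed by 10 points or more and 80% or more of the cytosines shared the sign. By this rule 31 promoters (0.585%) were higher in the knockdown and 3 (0.0566%) were lower.

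The largest promoter gains were at Spag17, Zglp1 and Spag8, which were also the 3 promoters at 20 points or more. Spag17, a central-pair protein of the sperm flagellum and motile cilia, read 45.1% in the Tet1 and Tet2 knockdown and 21.1% in control over 5 cytosines. It was higher at each of them, by between 9.90 and 32.6 points. Zglp1, a zinc finger regulator of germ cell development, read 33.1% in the knockdown and 11.1% in control over 9 cytosines and was likewise higher at each. Its cytosines lay between 18.2% and 47.4% in the knockdown and between 7.10% and 21.4% in control, and 5 of the 9 were read on the minus strand. Neighbouring cytosines on 1 strand can be read in the same fragments, so a count of cytosines in 1 direction is not a count of separate readings. Spag8, a sperm-associated antigen, read 31.7% in the knockdown and 9.98% in control over 5 cytosines. The cytosines of Spag17 and those of Spag8 were all read on the plus strand.

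In order of size, the next protein-coding promoter was that of Il11, a cytokine of the interleukin-6 family, at 57.2% in the Tet1 and Tet2 knockdown and 37.3% in control. Sprn, which encodes the prion-like protein Shadoo, read 32.7% in the knockdown and 14.3% in control, higher at 7 of 7 cytosines. Ntf3, the neurotrophin NT-3, read 21.2% in the knockdown and 5.92% in control. Mamstr, a coactivator of MEF2 factors in muscle, read 37.2% in the knockdown and 22.1% in control over 13 cytosines. Ect2l read 23.5% in the knockdown and 9.32% in control. Palm3, of the paralemmin family, read 17.9% in the knockdown and 4.17% in control, higher at 7 of 7. Catsperz, a subunit of the sperm calcium channel CatSper, read 37.5% in the knockdown and 24.4% in control. Smaller gains, between 10.2 and 12.8 points, were read at Smarca5, Far2, Ldhd, Cck, Dnah7c, P2rx1, Tubb4a, Hormad2, 4930524B15Rik and Ube2u. Among these, Cck, the gut and brain peptide cholecystokinin, read 78.5% in the knockdown and 66.0% in control, and Hormad2, a protein of meiotic chromosome axes, read 31.4% and 20.9%. When every listed cytosine in a window had to match the promoter sequence, 28 of the 31 higher promoters were left, without Mamstr, Dnah7c and the non-coding A030001D20Rik.

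The Dnmt3b library had levels at 30 of the 31 higher promoters, where the median was 37.4% in the Tet1 and Tet2 knockdown, 32.3% in the Dnmt3b knockdown and 21.6% in control. These promoters were picked for a high Tet1 and Tet2 level against this control, so the order of the 3 medians is not independent of the choice. At Ntf3 the Dnmt3b library read 21.4% and at Catsperz 37.0%, close to the Tet1 and Tet2 knockdown. At Palm3 it read 4.83%, close to control.

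**Figure D4:**
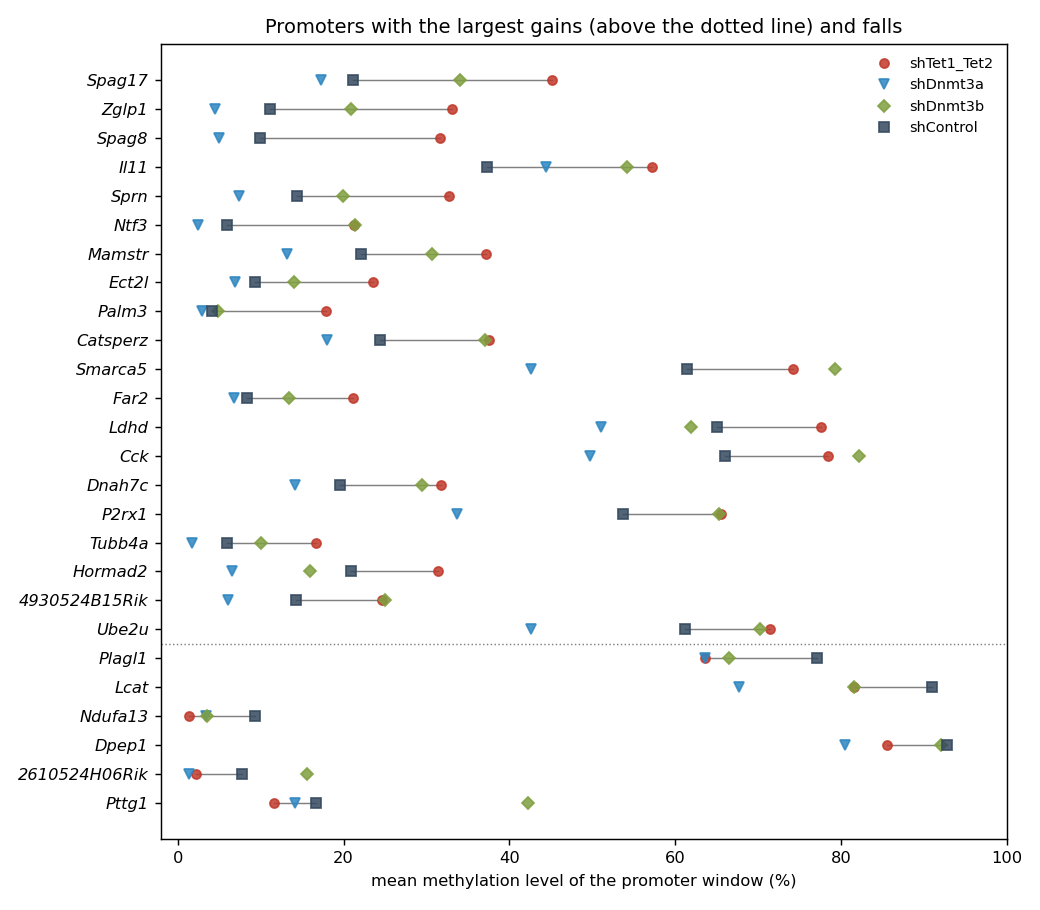
Mean methylation level in percent of promoter windows for the 20 protein-coding genes with the largest gains and the 6 with the most negative differences, shTet1_Tet2 minus shControl. Circles are shTet1_Tet2, triangles shDnmt3a, diamonds shDnmt3b and squares shControl, and a grey line joins shTet1_Tet2 and shControl; shDnmt3b is missing where it had no level.

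Lower promoters were fewer. Plagl1, an imprinted zinc finger gene, had the largest difference in this direction among protein-coding genes. It read 63.5% in the Tet1 and Tet2 knockdown and 77.1% in control, lower at 7 of 7 cytosines on both strands, by between 7.10 and 24.1 points. The Dnmt3b library read 66.5% over the 4 of these it held and Dnmt3a 63.6%, so control was the highest of these. Hymai, a non-coding transcript of the same locus whose window overlaps it, read 64.5% in the knockdown and 79.7% in control. Neither is counted when every listed cytosine has to match the promoter sequence. The remaining call was at Rab10os, a non-coding gene, which was listed at 0 in the knockdown and read 16.0% in control. It was also listed at 0 in the Dnmt1, Dnmt3a and double knockdown libraries and had no level in the Dnmt3b library. Among the libraries with a level, control alone thus stood apart there. Lcat, the plasma enzyme that esterifies cholesterol, read 81.6% in the knockdown and 91.0% in control. Ndufa13, a subunit of respiratory complex I, read 1.40% in the knockdown and 9.37% in control.

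Genes listed for the methylation machinery gave no difference to describe. Promoters of Tet1, Tet2, Tdg, Dnmt1 and Uhrf1 were listed at 0 in both libraries, over between 9 and 26 cytosines. That of Dnmt3a was listed at 0 in the knockdown and read 0.0625% in control. Of the 9 listed genes 6 could be read. The methylation of a promoter says nothing of whether the shRNA acted on the transcript.

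Of 19 germline genes listed, which are methylated and silent in most other cells, 7 could be read, 6 were higher in the Tet1 and Tet2 knockdown and 1 was lower. Their median difference was 3.07 points, against a median of 0 over all 5298 promoters, of which most are unmethylated. Of the 98 intermediate promoters 85 were higher, with a median of 5.24 points. Slc25a31, an ADP/ATP carrier of male germ cells, read 55.0% in the knockdown and 44.2% in control over 18 cytosines, 14 of them higher. Among its cytosines the largest difference lay 18 bases before the start, where the plus strand read 52.8% in the knockdown and 21.2% in control and the minus strand 49.0% and 24.4%. Mael, of the piRNA pathway, read 32.8% in the knockdown and 23.5% in control. Asz1, another piRNA pathway gene, read 73.9% in the knockdown and 68.3% in control. Hormad1, Ddx4 and Tex101 were higher by 3.07, 3.03 and 1.60 points. Dazl, an RNA-binding protein of germ cells, read 79.8% in the knockdown and 82.6% in control. None of the 7 passed the call for promoters.

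Of 69 developmental regulators listed, 14 could be read, 11 of them higher in the Tet1 and Tet2 knockdown and 3 lower, with a median difference of 0.661 points. Of the 14, 4 were below 1% in both libraries. Among these 4, Pax2 was higher by 0.00909 points and Lhx2 was lower by 0.0733 points. Over all 5298 promoters, most of which are low in the Dnmt3b library, 2348 were higher and 1303 lower, with a median of 0. Lhx3, a LIM homeobox factor of pituitary and motor neurons, read 20.6% in the knockdown and 14.8% in control. Pax5, a B cell factor, read 26.4% in the knockdown and 22.3% in control, and Hoxd9 read 5.83% and 1.96%. Foxa2, an endoderm factor, read 12.4% in the knockdown and 9.58% in control. Hoxa5 and Gata2 differed by 0.643 and 0.269 points. None passed the call. Of 17 pluripotency genes only Sox2 could be read, at 0.1% in the knockdown and 0 in control.

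Of 21 imprinted genes listed, 4 could be read, and none was higher in the Tet1 and Tet2 knockdown, against 2348 higher of all 5298 promoters. Of the 4, 2 were below 1% in both libraries, which leaves Plagl1 and Mcts2. Besides Plagl1, Mcts2 read 21.1% in the knockdown and 23.9% in control, lower at 11 of 14 cytosines. Grb10 read 0.0391% in the knockdown and 0.235% in control over 23 cytosines. Igf2r was listed at 0 in both.

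Distance from unmethylated sequence was examined because TET1 binds CpG-rich promoters. Unmethylated clusters, with at least 10 cytosines and a mean of at most 5% in the Dnmt3b library, numbered 10971. Inside them low cytosines read 0.573% in the Tet1 and Tet2 knockdown and 0.402% in control, a difference of 0.170 ± 0.044 points. Beyond 300 and up to 1000 bp from them, low cytosines read 3.41% in the knockdown and 2.52% in control, 0.886 ± 0.204 points apart. Beyond 2000 and up to 5000 bp the difference was 2.04 ± 0.54 points and farther away 1.57 ± 0.18 points. The level in control differed along the same steps, and relative to it the knockdown stood at 142% inside the clusters, 135% beyond 300 and up to 1000 bp and 134% in both steps beyond 2000 bp. Distance and starting level were not separated. Intermediate cytosines changed little with distance: 6.53 ± 2.76 points beyond 100 and up to 300 bp (n = 420), 6.05 ± 1.38 points beyond 1000 and up to 2000 bp and 5.37 ± 0.38 points beyond 5000 bp. The nearer steps differ from the farthest by less than their own spread over autosomes, but by more than the spread beyond 5000 bp. High cytosines differed by 2.64 ± 1.34 points beyond 1000 and up to 2000 bp and by 1.40 ± 0.19 points beyond 5000 bp.

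**Figure D5:**
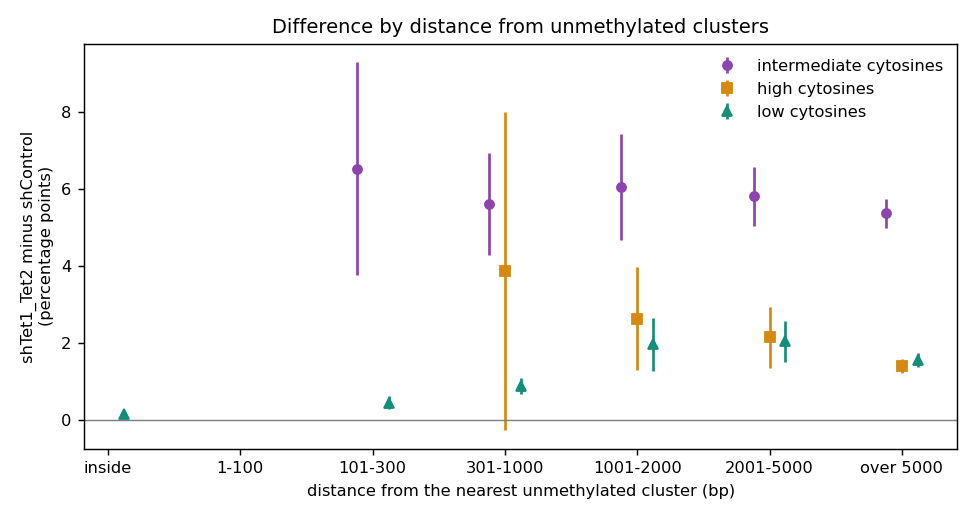
Mean difference, shTet1_Tet2 minus shControl in percentage points, against distance in bp from the nearest unmethylated cluster, for intermediate (circles), high (squares) and low (triangles) cytosines, in steps with at least 200 cytosines. Bars are the SD over autosomes; intermediate cytosines stay between 5.37 and 6.53 points, while low cytosines go from 0.170 points inside to 2.04 points at 2000 to 5000 bp.

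The difference at low cytosines also varied with CpG density. Low cytosines with at most 2 listed CpGs within 100 bp on either side, themselves included, read 8.77% in the Tet1 and Tet2 knockdown and 6.58% in control, 2.19 ± 0.26 points apart. Those with more than 20 read 0.363% in the knockdown and 0.284% in control, 0.0795 ± 0.0491 points apart. Intermediate cytosines were 5.19 ± 0.39 points apart at the lowest density and 3.88 ± 1.78 points with 11 to 20 CpGs. The levels differ along the same steps, so density and starting level were not separated.

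The difference varied modestly with the bases beside the CpG. Intermediate cytosines followed by T after the CpG (n = 9719) read 62.1% in the Tet1 and Tet2 knockdown and 55.5% in control, 6.60 ± 0.73 points apart. With G after the CpG (n = 48422) the difference was 5.19 ± 0.38 points, with C 5.33 ± 0.57 and with A 5.56 ± 0.60. By the base before, A gave 6.41 ± 0.68 points and G 5.05 ± 0.52. In tetranucleotides, aCGt was at 7.11 ± 0.96 points and gCGc at 3.79 ± 0.82, with 63.0% and 51.2% in the knockdown and 55.9% and 47.4% in control. The MspI site cCGg, which holds 37585 of the 79166 intermediate cytosines, was at 5.00 ± 0.39 points, against 5.82 ± 0.38 points for the rest. High cytosines gave the same first place to T, at 2.10 ± 0.43 points, against 1.31 to 1.43 points for the other bases.

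Along the chromosomes the gain was general. Of 258 windows of 5 Mb with at least 100 intermediate cytosines, 258 were higher in the Tet1 and Tet2 knockdown, with a median of 5.67 points. Of these windows 5% lay below 3.37 points and 5% above 7.58. The lowest was at the end of chromosome 19 (60 to 65 Mb), with 46.1% in the knockdown and 45.7% in control, and the highest on chromosome 13 (20 to 25 Mb), with 58.1% and 47.8%.

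The set of cytosines that were listed also differed. The Tet1 and Tet2 library had levels at 86871 autosomal cytosines without one in control, with a mean of 27.9%. Control had levels at 70619 without one in the knockdown, with a mean of 38.0%. Over each library's own cytosines the means were therefore 32.27% in the knockdown and 32.30% in control, and the difference given above is that over the same cytosines. Where the Dnmt3b library could be read at the knockdown's unshared cytosines (n = 23404), the Tet1 and Tet2 knockdown read 31.6% and Dnmt3b 30.8%.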

How the data were processed

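Methylation fractions between 0 and 1, rounded to 3 decimals by the authors, were deposited for single CpG cytosines on 1 strand, with 5 bases of context and without counts or coverage. TruSeq libraries of MspI-cut DNA were converted with an EpiTect kit and run on a HiScanSQ, per the labels' protocols. Named in the submitters' processing notes are Bismark 0.10.1, CASAVA 1.8 and mm9. Any coverage minimum and the handling of duplicates were not given in the sources used here. Thinly and deeply covered cytosines therefore weigh alike. Fractions were multiplied into percent.

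Matching used pandas 2.3.3 under Python 3.11.15 with NumPy 2.4.6. Figures were drawn with matplotlib 3.10.9. Cytosines without a level were left out. Classes were set on the Dnmt3b library, so that neither compared library sets the class of its own cytosines. Conditions were not tested against each other, as each had 1 library. The cluster rule was tested on simulated data that drew each cytosine independently, at the same fixed depth in both libraries. Neighbouring cytosines can share fragments in the real data, so that test does not give the rate of false calls here.

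The plan named genes only with an mm9 annotation, which was not used here. RefSeq promoters (31396 autosomal windows) were instead matched by sequence: at least 5 listed cytosines and at least 80% of those in the window had to carry the same 5 bases at 1 shift, the next best shift had to match at most 70% as many, and at least 2 of the 6 nearest windows had to share the shift within 20 kb. Of the windows 7696 passed, and 99.3% of their cytosines matched. Each gene was read in the window with most cytosines. Promoter calls, and the naming of the 20 largest gains and 6 most negative differences among protein-coding genes with at least 80% of cytosines in 1 direction, were chosen after the values were seen. Clusters were named by size: the 8 largest gains, 6 most negative differences, and up to 6 gains and 3 losses with 3 or more cytosines on each strand. The members and lists were chosen with earlier results of these data known.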

Additional observations from a re-analysis of the deposited data

Results flagged for a closer look

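The X chromosome lies outside the autosomal comparison. Its 10379 shared cytosines averaged 37.2% in the Tet1 and Tet2 knockdown and 36.1% in control, 1.08 points higher in the knockdown. It was set apart because the difference is in data that the comparison does not use. Its 1508 intermediate cytosines read 62.5% in the knockdown and 58.5% in control.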

How the results depend on the processing

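No paired analysis was possible because each group had 1 library, and for the same reason no replicate could be left out. The difference over all shared cytosines moved by less than its spread over autosomes under each alternative tried. Class differences depended on the library that set the classes. With classes on the median of the Dnmt3a, Dnmt3b and double knockdown libraries they were 0.807 points (low), 4.79 (intermediate) and 0.855 (high). With bounds of 10% and 90% they were 0.350, 3.99 and 0.912 points. With classes on the Dnmt3a library, an alternative chosen after seeing the data, they were 0.959, 4.04 and 0.614 points. With classes on control they were 0.795, 7.02 and -0.43 points, so the high class changed sign. With classes on the Tet1 and Tet2 library, also added later, they were 0.216, 3.34 and 3.42 points. These last 2 use a compared library, and the cause of the change was not tested. On the median classes, intermediate cytosines with T after the CpG differed by 5.57 points, those with G by 4.65 and those at MspI sites by 4.52.

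Counts followed the threshold, with more higher than lower at each. At 10, 30 and 50 points, 48283, 3476 and 239 cytosines were higher in the Tet1 and Tet2 knockdown and 18492, 1138 and 100 lower. Among cytosines listed in all 6 libraries, which are fewer, 5631 were higher and 1319 lower. Clusters numbered 1177 higher and 92 lower at 10 points, and 10 higher and 2 lower at 30 points. With 3 cytosines required there were 509 higher and 58 lower, and with 10 required 4 higher and 0 lower. In the set listed in all 6 libraries 50 were higher. Asking for 10 points on each strand, chosen after seeing the data, gave 167 higher. Promoters, all settings chosen after seeing the data, numbered 81 higher and 11 lower at 5 points and 3 higher and 0 lower at 20 points. Where every listed cytosine had to match, 1 was lower. Without coverage, no value here can be given a counting error.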

Other observations

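Outside the autosomes and the X chromosome, 1169 shared cytosines on unplaced sequence read 58.8% in the Tet1 and Tet2 knockdown and 59.6% in control. The Y chromosome held 83 shared cytosines, at 81.9% in the knockdown and 84.2% in control. On the mitochondrial genome 137 cytosines read 0.0161% in the knockdown and 0.0606% in control.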
